A study of Arabidopsis thaliana with 48 samples.

Results

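The 10 Arabidopsis thaliana genes described here encode the MYB and bHLH transcription factors that set when and where flavonoids are made. They were taken by locus from a list: PAP1 (AT1G56650), PAP2 (AT1G66390), MYB113 (AT1G66370), MYB114 (AT1G66380), MYB12 (AT2G47460), MYB111 (AT5G49330), MYBL2 (AT1G71030), TT8 (AT4G09820), GL3 (AT5G41315) and EGL3 (AT1G63650). All 10 are among the 33602 loci of the table of estimated counts, and their levels were followed in all 16 groups of the study. In shoots low sulfate raised PAP1 past the threshold in all 4 genotypes and PAP2 in 3 of them, and lowered the repressor MYBL2 more under the eil3 eil1 label than in Col-0. Roots carried almost no PAP1 or PAP2 and held MYB12, GL3, EGL3 and a level of MYBL2 far below that of shoots.

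Seedlings were 18 days old and grew on agarose plates of modified Long Ashton medium at 22 °C with 16 h of light a day. Low sulfate plates (-S) had 0.015 mM MgSO4 with 0.75 mM MgCl2, and sufficient plates (+S) had 0.75 mM MgSO4, so the low sulfate and the added chloride came together and cannot be told apart. The plants were labelled eil3 eil1 (a double mutant), eil3 (SALK_089129), eil1 (SALK_042113) and Col-0, the wild type that gives the background of the insertion lines. EIL1 and EIL3 are transcription factors of the EIN3 family, and EIL3, also called SLIM1, is known as a regulator of sulfur deficiency responses. Each of the 4 genotypes was sampled at -S and at +S, as root and as shoot, with 3 libraries per group and 48 in all. Library totals were 26615731 to 38269932 estimated counts in roots and 27029056 to 37809176 in shoots.

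Flavonoids are made from phenylalanine by way of chalcones and branch into flavonols, anthocyanins and proanthocyanidins. MYB12 and MYB111 act alone on the early enzymes and on flavonol synthase. PAP1, PAP2, MYB113 and MYB114 act with a bHLH partner (TT8, GL3 or EGL3) and the WD-repeat protein TTG1 in a complex that switches on the anthocyanin branch. MYBL2 is a small MYB that binds the same bHLH partners and represses that complex, and anthocyanins are known to build up in leaves under several nutrient shortages.

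The genotype labels were checked on the disrupted genes. In -S shoots EIL1 averaged 27 ± 1.12 CPM (counts per 1000000 counts, scaled by edgeR's TMM factors) in plants labelled eil3 eil1, 92.4 ± 5.98 CPM in those labelled eil1 and 105.1 ± 5.14 CPM in Col-0 (SD, n = 3 each), and in -S roots 19.5 ± 2.15, 43 ± 5.72 and 55.9 ± 4.27 CPM in the same order. EIL3 averaged 19.2 ± 2.57 CPM in -S shoots labelled eil3 against 21.9 ± 1.41 CPM in Col-0 shoots, and 14.8 ± 2.6 CPM in -S roots labelled eil3 against 22.2 ± 0.649 CPM in Col-0 roots. EIL3 was higher in shoots labelled eil3 eil1 than in Col-0, by 0.45 ± 0.11 on the log2 scale at -S (adjusted p = 0.00131). The eil3 eil1 label gave -1.16 to -1.96 for EIL1 against Col-0 at each supply in each organ, all called. Under the eil1 label EIL1 was called only in -S roots (-0.38 ± 0.10, adjusted p = 0.0406). EIL3 was lower in the roots labelled eil3 (-0.59 ± 0.10 at -S, adjusted p = 6.90e-04) and not in the shoots of that label or in roots labelled eil3 eil1. The transcript levels thus go against the labels in part, and directions below are given for plants as labelled. Counts cover the whole locus, so reads outside an insertion are included, and the level of a disrupted transcript does not check the insertion. The sum over 9 green tissue markers was 445.5 to 1785 CPM in roots and 18425 to 66933 CPM in shoots, and that over 7 root markers was 6662 to 10281 CPM in roots and 347.5 to 628.2 CPM in shoots, with no marker at 0.

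Values below are CPM per library, and fold changes with their SE come from edgeR's quasi-likelihood fit, with p-values adjusted over all loci tested by the Benjamini-Hochberg method and a threshold of 0.05. The count filter kept 8 of the 10 genes in shoots, 4 in roots (MYB12, MYBL2, GL3 and EGL3) and 7 in the fit of both organs of Col-0. A gene such as PAP2 or TT8 passed the filter in shoots through the groups where it was high, so the counts of genes called are given as descriptions. A count of 3, the floor used here, was worth 0.0804 to 0.111 CPM in roots and 0.0725 to 0.122 CPM in shoots.

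In Col-0 shoots low sulfate raised PAP1, PAP2 and TT8 and lowered MYBL2 and EGL3, by very unequal amounts. With 3 of the 8 genes tested higher and 2 lower, 5 were called, against 34.9% of 21697 loci tested (16.9% higher and 17.9% lower). In shoots labelled eil3 eil1 the same tally was 3 higher and 2 lower, in a comparison that called 60.8% of loci (32.5% higher and 28.3% lower). In shoots labelled eil3 it was 3 higher and 1 lower against 34.6% of loci called (18.1% higher and 16.6% lower). In shoots labelled eil1 only PAP1 was called, against 27.3% of loci (14.4% higher). The 4 genotypes do not share samples in these comparisons.

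**Figure D1:**
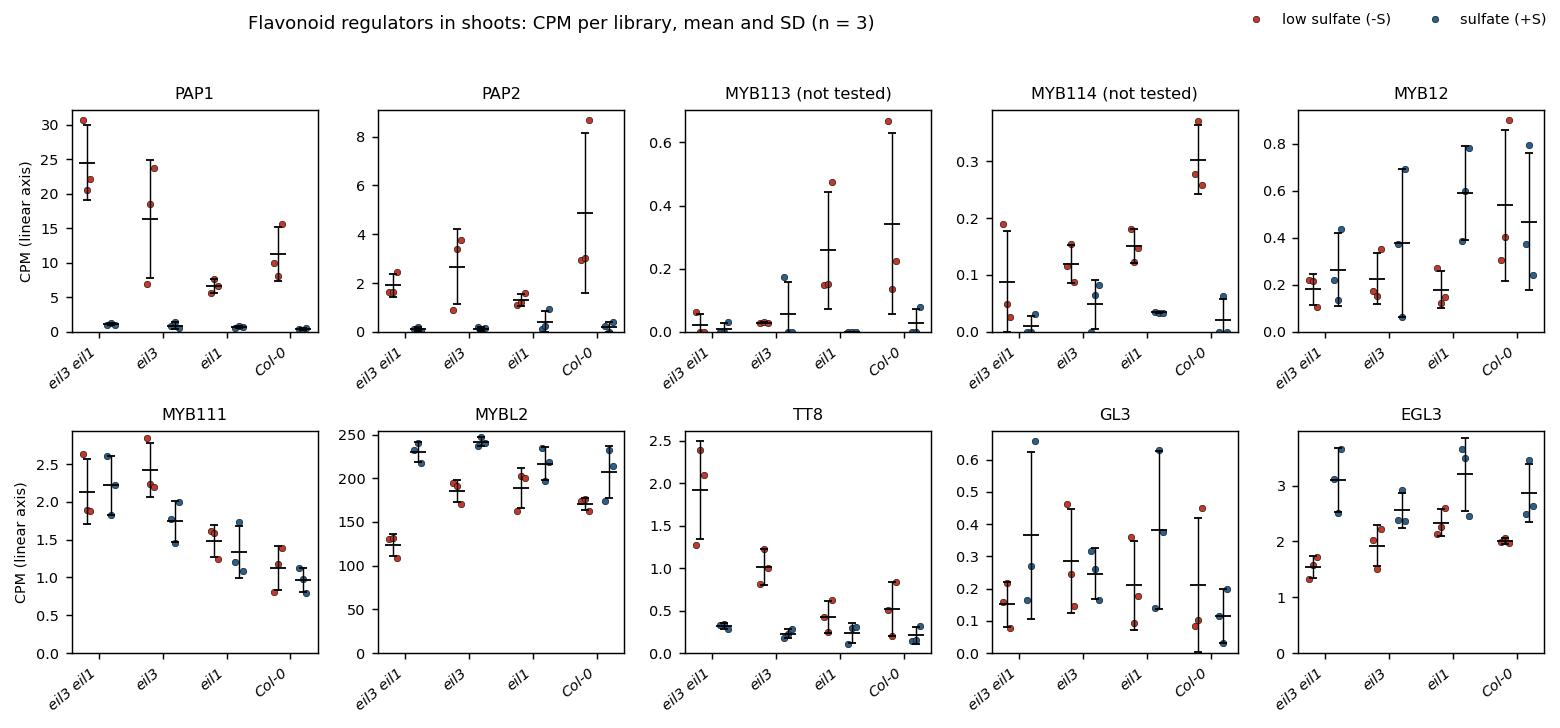
Level of each gene in shoots, as CPM on a linear axis that starts at 0, with red points for -S libraries left of blue points for +S libraries, 3 per group, and black bars for the mean and SD. PAP1 lay at 5.69 to 30.7 CPM in -S shoots and at 0.35 to 1.4 CPM in +S shoots, while MYBL2 lay at 108.9 to 202.3 CPM in -S shoots and at 174.1 to 247.4 CPM in +S shoots.

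PAP1, the R2R3-MYB whose activation turns leaves purple, rose in -S shoots of every genotype. Its 3 libraries held 30.7, 20.6 and 22.2 CPM in -S shoots labelled eil3 eil1, against 1.05, 1.29 and 1.06 CPM in the +S shoots of that label. Shoots labelled eil3 held 7, 18.6 and 23.7 CPM at -S against 0.863, 1.4 and 0.53 CPM at +S. Shoots labelled eil1 held 5.69, 7.65 and 6.62 CPM at -S against 0.599, 0.797 and 0.784 CPM at +S. Col-0 shoots held 10, 8.17 and 15.7 CPM at -S against 0.372, 0.35 and 0.521 CPM at +S. No -S library overlapped a +S library of any genotype. On the log2 scale the rise was 4.43 ± 0.38 in shoots labelled eil3 eil1 (adjusted p = 3.49e-09) and 4.11 ± 0.38 in those labelled eil3 (adjusted p = 3.61e-07). It was 3.18 ± 0.40 in those labelled eil1 (adjusted p = 9.66e-06) and 4.78 ± 0.43 in Col-0 (adjusted p = 7.58e-08). The response itself did not differ from that of Col-0 past the threshold, with a difference of -1.60 ± 0.64 for the eil1 label (adjusted p = 0.457), -0.67 ± 0.62 for eil3 (adjusted p = 0.659) and -0.35 ± 0.60 for eil3 eil1 (adjusted p = 0.687). In limma on log2(TPM + 1) the difference turned to 0.12 for eil3 and to 0.60 for eil3 eil1. On that scale the added 1 is near or above the level of PAP1 in +S shoots (means 0.408 to 1.19 TPM). These limma values are therefore not the same measure as those of edgeR.

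The level of PAP1 also differed between genotypes at -S. In the order of the -S means, shoots labelled eil3 eil1 came at 24.5 ± 5.45 CPM, eil3 at 16.4 ± 8.55, Col-0 at 11.3 ± 3.91 and eil1 at 6.65 ± 0.981 (SD, n = 3 each), and neighbours overlapped except Col-0 and eil1. PAP1 was higher in -S shoots labelled eil3 eil1 than in -S Col-0 shoots by 1.11 ± 0.30 (adjusted p = 0.0041). The eil1 label gave -0.76 ± 0.31 against Col-0 at -S, which did not pass (adjusted p = 0.266). The eil3 label gave 0.54 ± 0.30 (adjusted p = 0.239), and without its replicate 1 at -S, the library at 7 CPM, the value was 0.91 and passed (adjusted p = 0.0133). At +S the eil3 eil1 label gave 1.47 ± 0.52 over Col-0 (adjusted p = 0.0911), and this passed in DESeq2 and in a fit of those 2 groups alone (adjusted p over the alternatives 0.0106 to 0.235).

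PAP2, a close relative of PAP1 that also switches on anthocyanin genes, rose past the threshold in -S shoots of 3 of the 4 genotypes. It held 1.65, 1.64 and 2.46 CPM in -S shoots labelled eil3 eil1 against 0.139, 0.203 and 0.0313 CPM in the +S ones. It held 0.897, 3.38 and 3.76 CPM in -S shoots labelled eil3 against 0.201, 0.0325 and 0.163 CPM in the +S ones. Shoots labelled eil1 held 1.11, 1.22 and 1.6 CPM at -S against 0.106, 0.232 and 0.92 CPM at +S. Col-0 shoots held 2.95, 3.01 and 8.67 CPM at -S against 0.229, 0 and 0.4 CPM at +S. The -S and +S libraries did not overlap in any genotype. The change was 3.92 ± 0.81 for eil3 eil1 (adjusted p = 3.03e-04). It was 4.29 ± 0.81 for eil3 (adjusted p = 3.49e-04) and 4.58 ± 0.75 for Col-0 (adjusted p = 8.38e-05). For eil1 it was 1.63 ± 0.70 (adjusted p = 0.0909), and 2.92 without its +S replicate 3, the library at 0.92 CPM (adjusted p = 0.0202). No response differed from that of Col-0 past the threshold in edgeR. The difference was -2.95 ± 1.06 for eil1 (adjusted p = 0.379), -0.29 ± 1.30 for eil3 (adjusted p = 0.947) and -0.66 ± 1.28 for eil3 eil1 (adjusted p = 0.727).

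PAP2 and PAP1 ranked the genotypes differently at -S. By the means PAP2 was highest in Col-0 at 4.88 ± 3.29 CPM, then eil3 at 2.68 ± 1.55, eil3 eil1 at 1.92 ± 0.469 and eil1 at 1.31 ± 0.253 CPM (SD, n = 3 each). Col-0 overlapped with eil3, and eil3 with eil3 eil1. The eil1 libraries lay just below those of eil3 eil1, while 1 eil3 library, at 0.897 CPM, lay below all of eil1. Shoots labelled eil3 eil1 gave -1.34 ± 0.58 against Col-0 for PAP2 (adjusted p = 0.0558). That value was -0.63 without the Col-0 -S replicate 3 at 8.67 CPM (adjusted p = 0.415), and it passed without Col-0 -S replicate 1 or 2, in limma on log2(TPM + 1) and in the fit of those 2 groups alone. PAP1 gave 1.11 in the same comparison, as above. The difference between PAP1 and PAP2 in this respect was not tested.

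MYB113 and MYB114, the other anthocyanin MYBs, stayed near the floor and were not tested. MYB113 had 2, 0 and 0 counts in -S shoots labelled eil3 eil1 against 0, 0 and 1 in the +S ones, and 1, 1 and 1 at -S against 6, 0 and 0 at +S under the eil3 label. It had 5, 5 and 16 counts at -S against 0, 0 and 0 at +S under the eil1 label, and 24, 4 and 7 at -S against 0, 0 and 2 at +S in Col-0. MYB114 had 6, 2 and 1 counts in -S shoots labelled eil3 eil1, 4, 5 and 3 in eil3, 6, 4 and 5 in eil1 and 10, 11 and 8 in Col-0, and 0 to 2 counts in each +S library. The -S libraries lay above the +S libraries in eil1 and Col-0 for MYB113, and in eil3, eil1 and Col-0 for MYB114. With the count filter off, edgeR called MYB113 in Col-0 (adjusted p = 0.0268) and in eil1 (adjusted p = 0.0143) and MYB114 in Col-0 (adjusted p = 0.0058). DESeq2 gave 0.0518, 0.0117 and 0.00999 as the adjusted p of those 3 tests. The counts for MYB113 in -S shoots summed to 2 for eil3 eil1 and 3 for eil3, against 35 for Col-0.

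The 3 genes MYB113, MYB114 and PAP2 lie side by side on chromosome 1, with no annotated gene between them, over 11953 bases of TAIR10.1 (MYB113 at chr1:24753589-24754761, MYB114 at chr1:24757298-24758953 and PAP2 at chr1:24763941-24765541, all on the plus strand). PAP1 lies apart at chr1:21233555-21235292 on the minus strand. The coding sequences are 84.3% identical between PAP1 and PAP2 and 91.4% between PAP2 and MYB114 over the 420 bases of MYB114, whose coding sequence ends early, against 741 to 750 bases in the other 3. Of the 31-base words of a gene's span, 7.1% of PAP2, 6.09% of MYB114 and 0.82% of PAP1 occur elsewhere in the genome, so the low counts of PAP2 and MYB114 are uncertain by the reads they share.

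The 250 bases before each annotated start, from RefSeq's TAIR10.1, are shown because these 4 genes are close relatives with unequal levels. They lie at chr1:21235293-21235542 on the minus strand for PAP1, and on the plus strand at chr1:24763691-24763940 for PAP2, chr1:24753339-24753588 for MYB113 and chr1:24757048-24757297 for MYB114. Capitals mark the E-box CANNTG, the letters that bHLH proteins are known to bind, of which the palindrome CACGTG is the G-box that bZIP proteins also bind.
PAP1: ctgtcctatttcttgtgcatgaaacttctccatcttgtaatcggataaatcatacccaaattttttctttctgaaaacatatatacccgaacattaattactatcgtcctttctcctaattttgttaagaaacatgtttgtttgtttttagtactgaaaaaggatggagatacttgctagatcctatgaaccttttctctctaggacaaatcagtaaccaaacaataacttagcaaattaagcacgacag
PAP2: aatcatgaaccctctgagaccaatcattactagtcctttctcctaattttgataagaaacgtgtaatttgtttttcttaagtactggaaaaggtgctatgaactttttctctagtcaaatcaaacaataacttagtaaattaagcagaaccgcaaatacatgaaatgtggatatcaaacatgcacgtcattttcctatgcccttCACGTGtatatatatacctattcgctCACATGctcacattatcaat
MYB113: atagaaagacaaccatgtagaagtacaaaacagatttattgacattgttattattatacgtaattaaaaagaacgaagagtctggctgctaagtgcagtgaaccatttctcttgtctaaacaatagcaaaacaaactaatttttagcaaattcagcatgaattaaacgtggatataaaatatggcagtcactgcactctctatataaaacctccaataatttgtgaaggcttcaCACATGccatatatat
MYB114: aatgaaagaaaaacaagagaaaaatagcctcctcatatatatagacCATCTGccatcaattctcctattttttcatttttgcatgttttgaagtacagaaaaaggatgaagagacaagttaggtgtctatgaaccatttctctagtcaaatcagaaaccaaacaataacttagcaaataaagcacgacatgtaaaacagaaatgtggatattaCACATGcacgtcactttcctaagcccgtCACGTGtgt
Counted from 250 bases before to 50 bases after the start, the G-box lay 46 bases before the PAP2 start, 9 before that of MYB114 and 118 before that of MYB12. It was in 3 of the 10 windows and in 7.7% of 27443 RefSeq windows of that length. An E-box was in 7 of the 10 and in 61.7% of all windows, and ATGTA, the core letters known to be bound by EIN3-family proteins, was in 7 of the 10 and in 56.4% of all, on either strand. The PAP1 window held neither an E-box nor a G-box. The windows follow annotated starts, which are offset between PAP1 and PAP2 relative to the shared stretch given next. In PAP2 the G-box lies after that stretch, so the matching place in PAP1 may fall outside its window. The longest stretch shared by PAP1 and PAP2 was 27 bases, which begin 10 bases after the PAP1 start and 88 before the PAP2 start.
shared by PAP1 and PAP2: aaatgtggatatcaaacatgcacgtca
PAP1 and MYB114 shared 23 bases that begin 35 bases before the PAP1 start and 95 before the MYB114 start.
shared by PAP1 and MYB114: aaccaaacaataacttagcaaat

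The flavonol MYBs divided by organ, with MYB111 (chr5:19998823-20001572, minus strand) in shoots and MYB12 (chr2:19476326-19479597, plus strand) in roots. MYB111 held 2.63, 1.89 and 1.88 CPM in -S shoots labelled eil3 eil1, 2.84, 2.24 and 2.2 in eil3, 1.62, 1.59 and 1.24 in eil1 and 0.807, 1.18 and 1.39 CPM in Col-0. At +S it held 2.61, 1.83 and 2.22 CPM in shoots labelled eil3 eil1, 1.78, 1.46 and 2 in eil3, 1.2, 1.73 and 1.09 in eil1 and 1.12, 0.985 and 0.801 CPM in Col-0. Low sulfate moved it past the threshold in none of the 4 genotypes (log2 fold changes -0.07 to 0.48, of which that of eil3 eil1, -0.07, turned to 0.10 under scaling by total counts and 0.13 in limma), and the eil3 label, at 0.48 ± 0.23, passed under scaling by total counts (0.70, adjusted p = 0.015) and in limma on log2(TPM + 1) (0.47, adjusted p = 0.00118). Libraries labelled eil3 eil1 lay above all Col-0 libraries at both supplies, and MYB111 was higher by 0.92 ± 0.24 at -S (adjusted p = 0.00248) and by 1.19 ± 0.24 at +S (adjusted p = 0.00435). The eil3 label gave 1.11 ± 0.24 at -S (adjusted p = 0.00273) and 0.84 ± 0.24 at +S (adjusted p = 0.0411). The last of these did not pass when any 1 of the 6 libraries was left out (adjusted p 0.0502 to 0.135), nor without the count filter, in limma or with those 2 groups alone.

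MYB12 was near the floor in shoots, at 0.0649 to 0.903 CPM, and at 11.4 to 23.6 CPM in roots. In -S shoots it was lower in the eil3 eil1 label than in Col-0 by -1.54 ± 0.64 (adjusted p = 0.0479), on 7, 9 and 4 counts against 11, 12 and 28. That call held only without Col-0 -S replicate 1 among the 6 fits with a library left out (adjusted p 0.032 to 0.281), and it did not pass with total-count scaling, without the count filter or in limma (-0.20). In roots MYB12 held 16.2, 23.6 and 17.8 CPM at -S against 13, 13.1 and 11.4 CPM at +S under the eil3 label. It held 23.4, 19 and 22.2 CPM at -S against 14.7, 12.3 and 15 CPM at +S under the eil1 label. The -S and +S libraries were apart in each. The rise was 0.62 ± 0.14 under each label (adjusted p = 0.0244 for eil3 and 0.0135 for eil1). Under the eil1 label it did not pass without -S replicate 1 or 3 or +S replicate 2 (adjusted p up to 0.0718), and under the eil3 label without -S replicate 2 or any 1 of the +S libraries (adjusted p up to 0.177), nor with those 2 groups alone. Col-0 roots held 18.3, 15.1 and 15.4 CPM at -S against 15.8, 12.1 and 15.8 CPM at +S, a change of 0.16 ± 0.14 (adjusted p = 0.543). The eil3 eil1 label held 14.8, 18.5 and 15.3 CPM at -S against 18.4, 20.7 and 17.9 CPM at +S, a change of -0.23 ± 0.13 (adjusted p = 0.494). No difference of response from Col-0 passed for MYB12 in roots (adjusted p 0.317 to 0.536).

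**Figure D2:**
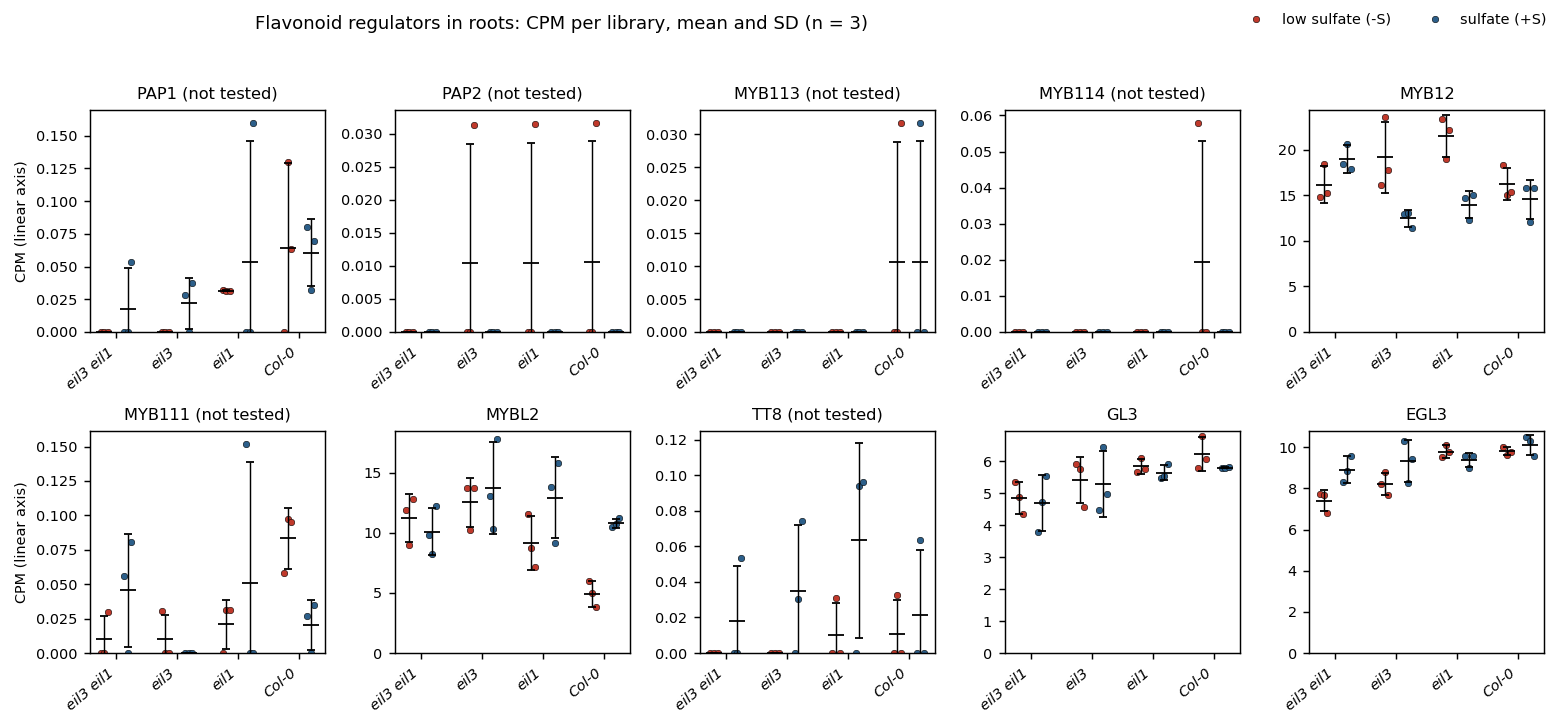
Level of each gene in roots, as CPM on a linear axis that starts at 0, with red points for -S libraries left of blue points for +S libraries, 3 per group, and black bars for the mean and SD. MYB12, MYBL2, GL3 and EGL3 were measured in every library, and the other 6 panels show single counts, up to 5 per library.

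In roots 1 of the 4 genes tested was lower in Col-0, where 9.03% of 21954 loci were called (4.77% lower), and 1 was higher under the eil1 label (1.92% of loci called, 1.09% higher) and 1 under the eil3 label (1.06%, 0.469% higher). None was called under the eil3 eil1 label, where edgeR called 3.89% of loci, and no member passed in DESeq2 either (1 member, EGL3, had an unadjusted p under 0.05). PAP1 had 0 to 5 counts in each of the 24 root libraries, PAP2 0 or 1, MYB113 0 or 1, MYB114 0 to 2, TT8 0 to 3 and MYB111 0 to 5.

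MYBL2 (chr1:26795052-26796532 on the minus strand) was the most abundant of the 10 per length in Col-0 shoots, and it fell at -S in 3 of the 4 genotypes, more under the eil3 eil1 label than in Col-0. Shoots labelled eil3 eil1 held 130.2, 131.9 and 108.9 CPM at -S against 232.5, 239.8 and 217.9 CPM at +S. Shoots labelled eil3 held 194.4, 191.3 and 170.8 CPM at -S against 237.1, 247.4 and 240.7 CPM at +S. Shoots labelled eil1 held 162.2, 202.3 and 200.8 CPM at -S against 234.7, 196.7 and 218.9 CPM at +S. Col-0 shoots held 173.8, 175.9 and 162.8 CPM at -S against 174.1, 232.7 and 213.7 CPM at +S. The -S and +S libraries overlapped for eil1 and for Col-0, and were apart for eil3 eil1 and eil3. The log2 change was -0.90 ± 0.10 for eil3 eil1 (adjusted p = 2.40e-07), -0.38 ± 0.10 for eil3 (adjusted p = 0.00658), -0.20 ± 0.10 for eil1 (adjusted p = 0.156) and -0.28 ± 0.10 for Col-0 (adjusted p = 0.0423). The response under the eil3 eil1 label differed from that of Col-0 by -0.62 ± 0.15 (adjusted p = 0.00214), in a comparison that called 36.9% of loci (16.9% lower). At -S the eil3 eil1 label was lower than Col-0 by -0.47 ± 0.10 (adjusted p = 7.07e-04) and at +S it gave 0.15 ± 0.10 (adjusted p = 0.422).

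The small changes of MYBL2 in the other shoots depended on the settings. Scaling by total counts in place of TMM, which moves the median of all loci by 0.12 in Col-0 and 0.25 under the eil3 label, ended the calls in Col-0 and eil3, as did limma on log2(TPM + 1), with values of -0.06 in Col-0 and -0.04 under the eil3 label in limma. In Col-0 the call was also lost without the count filter and with those 2 groups alone, and among fits with a library left out it held only without +S replicate 1 (adjusted p over the 6 fits 0.00572 to 0.232). The sum of the 9 green tissue markers, whose genes encode photosynthetic proteins, ran the same way as MYBL2. It was 18425 to 19345 CPM at -S against 49282 to 56653 CPM at +S in shoots labelled eil3 eil1, and 33098 to 39293 CPM at -S against 51897 to 64282 CPM at +S in Col-0 shoots. All 9 fell in these comparisons of eil3 eil1, eil3 and Col-0, and 5 fell under the eil1 label. Of the 7 root markers, 5 fell in shoots labelled eil3 eil1 (median -1.90 on the log2 scale) and none in the other 3 genotypes, and 5 were lower in the difference of that response from Col-0 (median -2.10). Their sum was 511.7 to 543.8 CPM at -S against 356.3 to 499.4 CPM at +S under the eil3 eil1 label, of which PYK10, which was not called, made up 508.3 to 538.6 CPM at -S against 347.3 to 489.3 CPM at +S. The part of either marker list in the result was not tested. In bulk shoots fewer cells of a type and less RNA per cell cannot be told apart.

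In roots MYBL2 was far below its level in shoots, and low sulfate lowered it in Col-0. Col-0 roots held 5.97, 4.98 and 3.83 CPM at -S against 10.5, 10.7 and 11.2 CPM at +S, and the libraries were apart. The change was -1.13 ± 0.23 (adjusted p = 0.00264). Roots labelled eil3 eil1 held 11.9, 9.03 and 12.8 CPM at -S against 9.85, 8.26 and 12.2 CPM at +S. Those labelled eil3 held 13.7, 10.2 and 13.7 CPM at -S against 13.1, 10.3 and 17.8 CPM at +S. Those labelled eil1 held 11.6, 8.74 and 7.13 CPM at -S against 13.8, 9.19 and 15.8 CPM at +S. In each of these 3 labels, taken in that order, the -S and +S libraries overlapped, with changes of 0.15 ± 0.22 (adjusted p = 0.863), -0.13 ± 0.22 (adjusted p = 0.905) and -0.50 ± 0.22 (adjusted p = 0.374). The difference of the response from that of Col-0 was 1.28 ± 0.32 for eil3 eil1 (adjusted p = 0.0244, where 3.83% of loci were called and 2.3% higher), 1.00 ± 0.32 for eil3 (adjusted p = 0.181) and 0.63 ± 0.32 for eil1 (adjusted p = 0.68). The first of these did not pass in 7 of 12 fits with a library left out (adjusted p up to 0.0785): without Col-0 -S replicate 2 or 3, Col-0 +S replicate 3, eil3 eil1 -S replicate 1 or 3, or eil3 eil1 +S replicate 1 or 2. It did not pass in limma either.

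Set against Col-0 at -S, MYBL2 in roots was higher by 1.19 ± 0.23 under the eil3 eil1 label (adjusted p = 0.00128), by 1.34 ± 0.23 under eil3 (adjusted p = 6.63e-04) and by 0.89 ± 0.23 under eil1 (adjusted p = 0.0448). These 3 comparisons share the Col-0 -S roots, the group with the lowest values, and they called 12.1%, 6.65% and 2.51% of loci (6.07%, 3.28% and 1.33% higher). The eil1 value did not pass without eil1 -S replicate 1 or 2 or Col-0 -S replicate 2 or 3 (adjusted p up to 0.256), nor with total-count scaling, in limma or with those 2 groups alone. At +S, where 0.879%, 2.19% and 1.24% of loci were called in the same order, no member passed in roots of any label in edgeR or DESeq2, and 3, 0 and 0 had an unadjusted p under 0.05. Green tissue markers summed to 870.4, 651.6 and 825.3 CPM in -S roots labelled eil3 eil1 and 785, 887.4 and 647.5 CPM in -S Col-0 roots, against 805.4, 978.9 and 796.4 CPM in +S Col-0 roots. No marker of the 9 was called in the Col-0 response of roots or between those labels at -S, and the sum was largest, at 1785 CPM, in the eil1 +S replicate 1.

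TT8, the bHLH partner that is itself a target of the complex (chr4:6181881-6186523 on the plus strand), was low in shoots and rose at -S under the eil3 eil1 and eil3 labels. It held 1.27, 2.39 and 2.09 CPM at -S against 0.333, 0.339 and 0.281 CPM at +S in shoots labelled eil3 eil1. It held 0.81, 1.23 and 0.998 CPM at -S against 0.173, 0.227 and 0.286 CPM at +S in those labelled eil3. No library overlapped in either. Shoots labelled eil1 held 0.421, 0.245 and 0.621 CPM at -S against 0.106, 0.299 and 0.307 CPM at +S. Col-0 shoots held 0.501, 0.203 and 0.838 CPM at -S against 0.143, 0.159 and 0.32 CPM at +S. The libraries overlapped in each of these. The rise was 2.58 ± 0.43 (adjusted p = 2.54e-05) for eil3 eil1, 2.15 ± 0.47 for eil3 (adjusted p = 0.00121) and 1.35 ± 0.50 for Col-0 (adjusted p = 0.0406), and the change was 0.84 ± 0.49 for eil1 (adjusted p = 0.224). The Col-0 call did not pass without -S replicate 1 or 3 or without +S replicate 1 or 2 (values 0.83 to 1.75, adjusted p 0.00887 to 0.269), nor without the count filter or in limma (0.15). At -S TT8 was higher under the eil3 eil1 label than in Col-0 by 1.89 ± 0.41 (adjusted p = 5.23e-04), with no overlap. The difference of response, 1.24 ± 0.68, did not pass in edgeR (adjusted p = 0.162). It passed in limma on log2(TPM + 1) (adjusted p = 0.00382). TT8 was at most 0.967 TPM in shoots, where the added 1 shrinks fold changes, so limma did not test the same quantity. Of the 31-base words of the TT8 span 21.1% occur elsewhere in the genome, none in an annotated gene. Whether reads from those places add to its low counts was not tested.

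GL3 (chr5:16529090-16533287, plus strand) and EGL3 (chr1:23599413-23603164, plus strand) are bHLH partners known for trichome and root hair patterning, and their coding sequences are 80.8% identical. EGL3 held 1.33, 1.57 and 1.72 CPM at -S against 3.11, 2.51 and 3.66 CPM at +S in shoots labelled eil3 eil1, with no overlap, and fell by 1.00 ± 0.20 on the log2 scale (adjusted p = 1.62e-04). In Col-0 shoots it held 1.98, 2.06 and 1.97 CPM at -S against 2.49, 3.46 and 2.64 CPM at +S, a change of -0.52 ± 0.20 (adjusted p = 0.0447) that held among fits with a library left out only without +S replicate 1 (adjusted p over the 6 fits 0.0333 to 0.228). It did not pass with total-count scaling, without the count filter, in limma (-0.16), in DESeq2 or with those 2 groups alone. The eil3 and eil1 labels gave -0.41 ± 0.20 (adjusted p = 0.111) and -0.45 ± 0.19 (adjusted p = 0.0858), and without eil1 +S replicate 3 the last was -0.61 and passed (adjusted p = 0.0326). In roots EGL3 held 6.81 to 10.5 CPM, and at -S it was lower under the eil3 eil1 label (7.71, 7.67 and 6.81 CPM) than in Col-0 (10, 9.63 and 9.79 CPM) by -0.41 ± 0.09 (adjusted p = 0.00288, in a comparison with 6.01% of loci lower). GL3 held 3.79 to 6.8 CPM in roots and 0.0318 to 0.657 CPM in shoots, and none of its contrasts between supplies or genotypes passed.

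**Figure D3:**
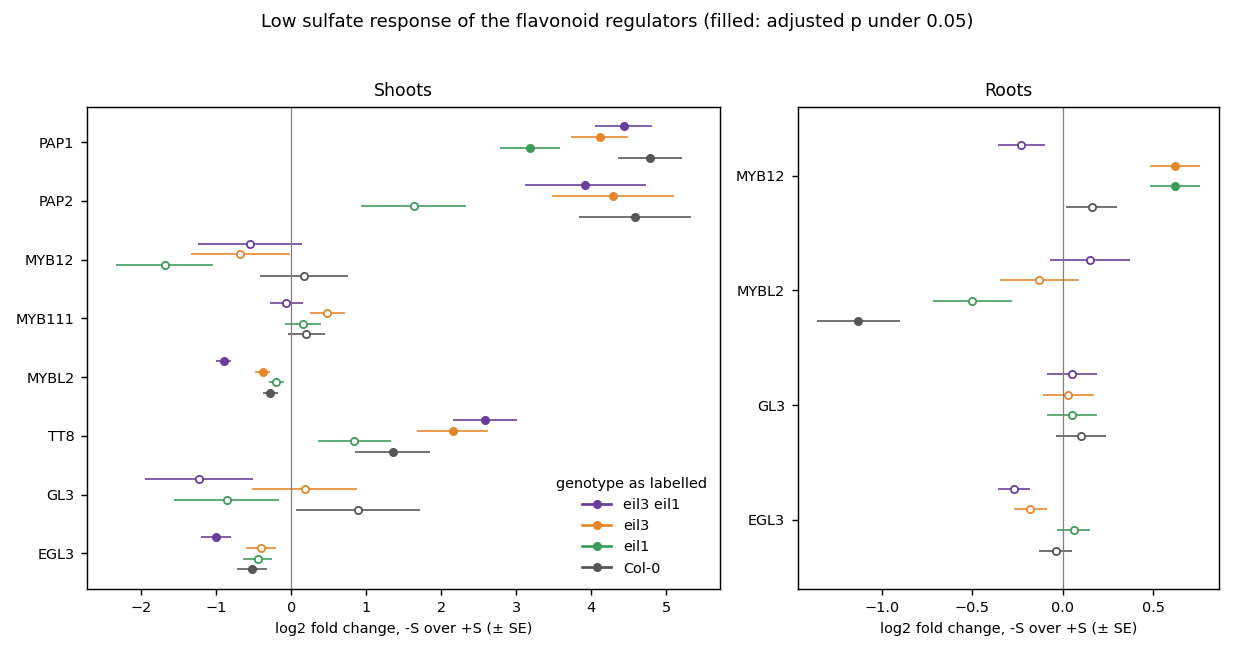
Low sulfate response of the genes tested in shoots (left) and roots (right), as the log2 fold change of -S over +S with its SE, in purple for eil3 eil1, orange for eil3, green for eil1 and grey for Col-0; filled points have an adjusted p under 0.05. PAP1 lay between 3.18 and 4.78 in shoots of all 4 genotypes, and MYBL2 at -0.90 for eil3 eil1 in shoots and at -1.13 for Col-0 in roots.

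Counted over the genes, mutant labels differed from Col-0 in shoots as follows. At -S the eil3 eil1 label had 3 genes higher (PAP1, MYB111 and TT8) and 2 lower (MYBL2 and MYB12), where 53.6% of loci were called (27.4% higher and 26.1% lower), and the eil3 label had MYB111 higher, where 17.5% were called (8.85% higher). The eil1 label had none called in edgeR at -S, where 0.53% of loci were called, or in DESeq2, while 3 members (PAP1, PAP2 and MYB12) had an unadjusted p under 0.05. At +S MYB111 was higher under the eil3 eil1 label (7.54% of loci called, 2.84% higher) and under the eil3 label (7.13%, 2.47% higher), and the eil1 label had none called in edgeR (1.26% of loci) or DESeq2, with 1 member (GL3) at an unadjusted p under 0.05. For the differences of response, which called 0.023% of loci for eil1 and 1.78% for eil3, no member passed in edgeR or DESeq2, and 3 (PAP1, PAP2 and MYB12) and 0 had an unadjusted p under 0.05. All of these comparisons at one supply share the Col-0 libraries of that supply.

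The organs of Col-0 divided the genes into those higher in roots and those higher in shoots. Per length, as TPM (transcripts per 1000000, computed here from counts and effective lengths) with the mean ± SD of 3 libraries, MYB12 held 9.28 ± 0.879 TPM in -S roots against 0.272 ± 0.159 TPM in -S shoots. GL3 held 3.24 ± 0.378 TPM in -S roots against 0.0975 ± 0.0946 TPM in -S shoots, and EGL3 5.4 ± 0.107 against 0.98 ± 0.0246 TPM. These 3 stood higher in roots. PAP1 held 0.0837 ± 0.0861 TPM in -S roots against 12.8 ± 4.35 TPM in -S shoots, MYB111 0.0635 ± 0.0179 against 0.756 ± 0.182 TPM, and MYBL2 8.18 ± 1.78 against 252.5 ± 13.8 TPM. Of the 7 genes tested, 3 were higher in roots (MYB12, GL3 and EGL3) and 4 lower, at each supply. At -S 76.8% of 22301 loci were called (38.9% higher and 37.9% lower), and at +S 76.4% (40.5% higher and 35.9% lower). PAP1, PAP2 and MYB111 did not pass the count filter in roots and entered this fit through shoots, so their calls are descriptions. The root minus shoot difference on the log2 scale at -S was 4.48 ± 0.33 for MYB12, 4.43 ± 0.40 for GL3 and 1.84 ± 0.14 for EGL3. It was -5.56 ± 0.15 for MYBL2, -7.85 ± 0.46 for PAP1 and -4.14 ± 0.42 for MYB111. The last 2 rest on 6 and 8 counts summed over the 3 -S root libraries, near the floor, so their sizes are uncertain. Over the alternatives PAP1 ranged from -7.95 to -3.63 and MYB111 from -4.21 to -0.72, against -5.56 to -4.80 for MYBL2. GL3 and MYB12 were low on the shoot side, with 20 and 51 counts summed over the 3 -S shoot libraries. Their differences ranged from 1.95 to 4.87 and from 3.02 to 4.92 over the alternatives, so these sizes are uncertain too. PAP2 had 0, 0 and 1 counts in -S roots of Col-0 against 106, 89 and 269 in -S shoots, and 0, 0 and 0 in +S roots against 8, 0 and 10 in +S shoots. Its call at +S did not pass without shoot +S replicate 3 (adjusted p = 0.055), nor in limma.

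Low sulfate acted differently on MYBL2 in the organs of Col-0. The response of roots minus that of shoots was -0.85 ± 0.19 (adjusted p = 0.0121), in a comparison that called 13.2% of loci (7.25% lower). PAP1 was called too, but it entered that fit through shoots, with 0, 4 and 2 counts in -S roots against 3, 1 and 2 in +S roots, and its response in roots was not measurable at this depth. PAP2 had too few counts in roots for this contrast.

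**Figure D4:**
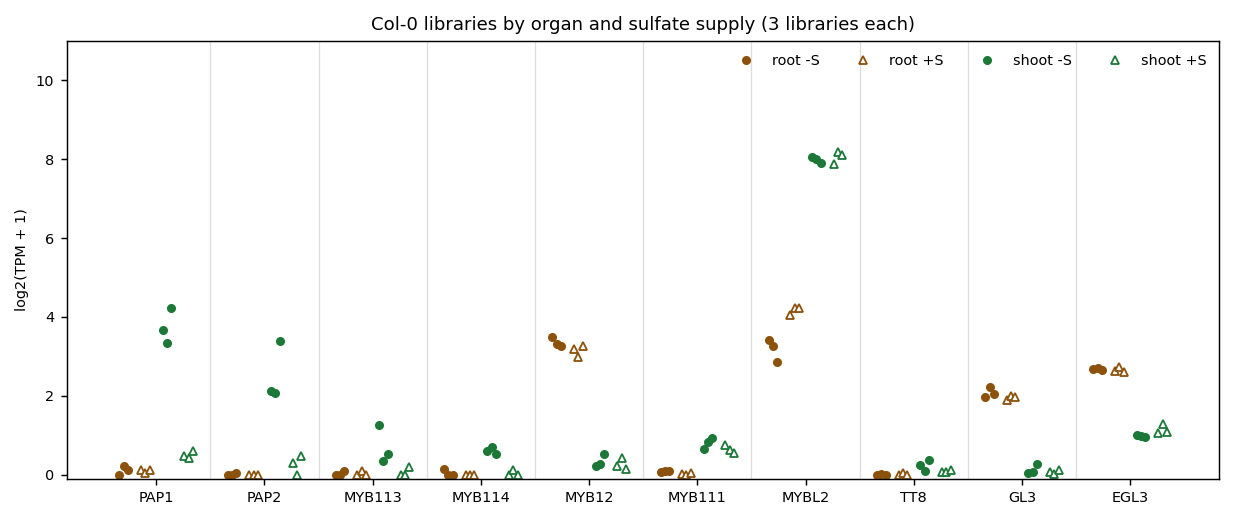
Level per length of each gene in the 12 Col-0 libraries, as log2(TPM + 1), with brown symbols for roots left of green symbols for shoots, filled circles for -S and open triangles for +S. MYB12, GL3 and EGL3 were higher in roots, and the other genes were near 0 there except MYBL2.

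Within Col-0 shoots the order per length at -S was MYBL2 (252.5 TPM), PAP1 (12.8), PAP2 (5.34), EGL3 (0.98), MYB111 (0.756), MYB113 (0.707), MYB114 (0.534), MYB12 (0.272), TT8 (0.179) and GL3 (0.0975 TPM). Libraries were apart between MYBL2 and PAP1, PAP2 and EGL3, and EGL3 and MYB111, and the other neighbours in that order overlapped. At +S the means of EGL3 (1.22 ± 0.182 TPM) and MYB111 (0.569 ± 0.106) stood above those of PAP1 (0.408 ± 0.0922) and PAP2 (0.203 ± 0.192 TPM). The libraries of MYB111 and PAP1 overlapped there, as did those of PAP1 and PAP2. By length the targets that the authors counted on include introns for most of these genes, for example 4471 bases for TT8 against 2005 when spliced. A long intron thus lowers the level per length. The targets are shorter than the RefSeq spans (4643 bases for TT8). Those of MYB113 and MYB114, 971 and 1078 bases, equal the coding span with introns. That of MYBL2, 1242 bases, lies within its spliced lengths of 1222 to 1327. Whether reads outside the coding span were missed was not tested.

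The structural genes of the pathway, which the anthocyanin MYBs are known to switch on, were taken from lists. Of 11 anthocyanin genes, 10 rose in shoots labelled eil3 eil1 (median 1.96 on the log2 scale, against 0.02 over all loci tested) and 10 under the eil3 label (median 1.38 against 0.02). Of the same 11, 3 rose under eil1 (median 0.55 against 0.01) and 6 in Col-0 (median 0.79 against 0.00), and none fell. Over all loci 32.5% rose under eil3 eil1, 18.1% under eil3, 14.4% under eil1 and 16.9% in Col-0. Under the eil3 eil1 label the smallest p belonged to 3AT2 (1.96 ± 0.17), an anthocyanin acyltransferase, GSTF12 (4.58 ± 0.40), which is needed to carry anthocyanins to the vacuole, BGLU10 (1.57 ± 0.15), an anthocyanin glucosyltransferase, and 3AT1 (1.92 ± 0.22), another acyltransferase. GSTF12 averaged 22.4 ± 2.08 CPM at -S against 0.941 ± 0.497 CPM at +S under that label, and 4.32 ± 1.43 against 0.984 ± 0.0562 CPM in Col-0 (SD, n = 3 each). DFR, dihydroflavonol reductase at the entry of the branch, averaged 22.3 ± 1.81 CPM at -S against 1.29 ± 0.74 CPM at +S under that label, and 4.65 ± 1.2 against 1.39 ± 0.915 CPM in Col-0.

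For the anthocyanin genes the difference of response between the eil3 eil1 label and Col-0 passed for 9 of 11 in shoots, 8 higher and 1 lower (median 1.30), where 36.9% of all loci were called. GSTF12 gave 2.45 ± 0.56 (adjusted p = 0.00176), LDOX, anthocyanidin synthase, 2.55 ± 0.60 (adjusted p = 0.00214) and UGT84A2, a sinapate glucosyltransferase, -1.15 ± 0.23 (adjusted p = 4.75e-04). PAP1, PAP2 and TT8 did not pass in that contrast, as given above, and MYBL2 was the only member that did. A link between any member and these genes was not tested. The eil3 label passed for none of the 11 in the same contrast (median 0.59), but 8 were higher than in Col-0 at -S (median 1.01), against 9 higher and 2 lower for eil3 eil1 (median 1.58). Over all loci 8.85% were higher for eil3, and 27.4% higher and 26.1% lower for eil3 eil1.

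Of the 5 early enzymes, all rose in shoots labelled eil3 eil1 (CHS, chalcone synthase, by 2.51 ± 0.42) and 2 under eil3 (CHS by 1.81 ± 0.42). Under eil1 1 rose (CHI, chalcone isomerase, by 0.44 ± 0.12), and none was called in Col-0 (CHS gave 0.94 ± 0.43, adjusted p = 0.093). The share of all loci that rose was 32.5% under eil3 eil1, 18.1% under eil3, 14.4% under eil1 and 16.9% in Col-0. CHS averaged 40.4 ± 2.52 CPM at -S against 7.05 ± 3.22 CPM at +S under the eil3 eil1 label, and 28.6 ± 13.8 against 8.25 ± 3.06 CPM under eil3. It averaged 11 ± 4.16 CPM at -S against 11.5 ± 3.9 CPM at +S under eil1 and 13.2 ± 6.21 against 6.89 ± 1.32 CPM in Col-0 (SD, n = 3 each). Of 5 flavonol enzymes, 1 rose and 2 fell under eil3 eil1, none rose and 1 fell under eil3, 2 rose under eil1 and 2 rose in Col-0. FLS1, flavonol synthase and a target of MYB12 and MYB111, fell by 0.77 ± 0.31 under eil3 eil1 (adjusted p = 0.0397) and by 0.97 ± 0.31 under eil3 (adjusted p = 0.0192). Of 5 genes of general phenylpropanoid metabolism, 1 rose and 2 fell under eil3 eil1, and 2 fell in Col-0, among them PAL2 (phenylalanine ammonia-lyase) in each. With 60.8% of all loci called under eil3 eil1 and 34.9% in Col-0, the flavonol and phenylpropanoid counts are near the share over all loci. AHA10, a proton pump needed for proanthocyanidin storage in the seed coat, was the only one of 4 proanthocyanidin genes tested in shoots, and it rose by 0.85 ± 0.21 under eil3 eil1 (adjusted p = 0.00154), 0.56 ± 0.21 under eil3 (adjusted p = 0.048) and 0.66 ± 0.22 in Col-0 (adjusted p = 0.0236), with 0.03 ± 0.21 under eil1 (adjusted p = 0.935).

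**Figure D5:**
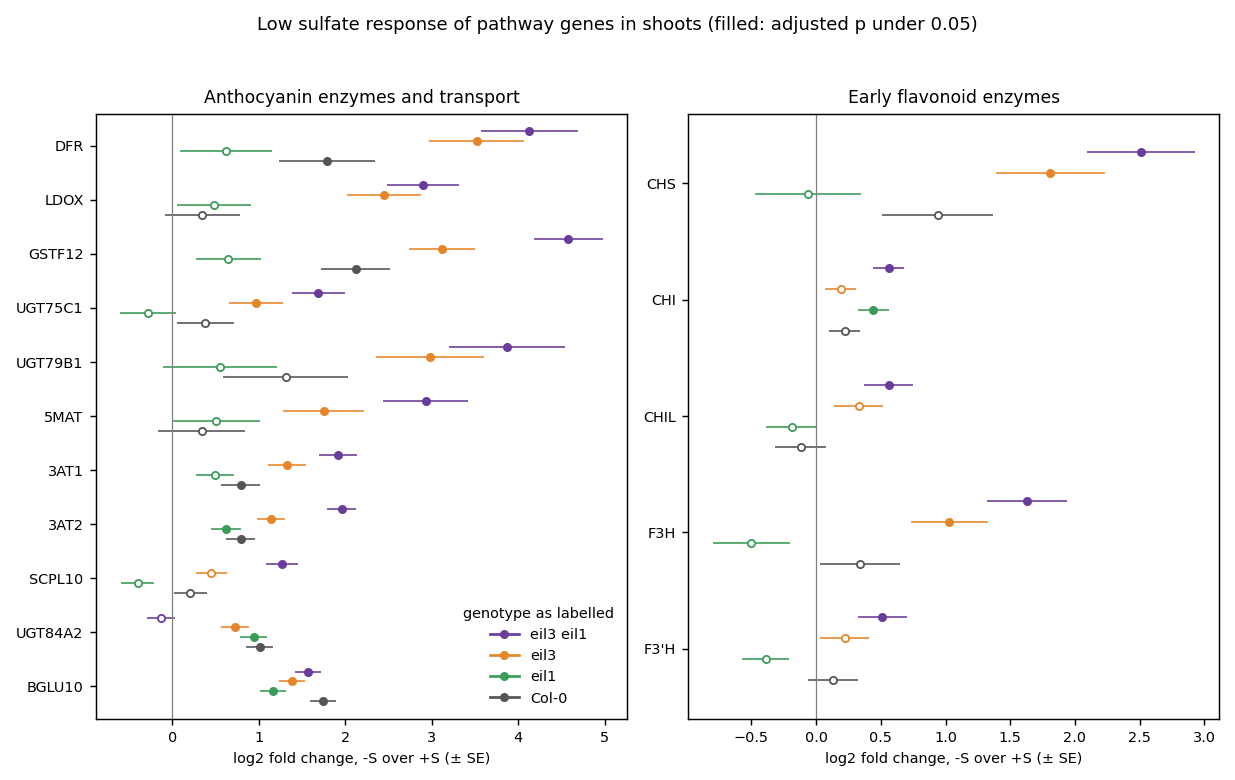
Low sulfate response in shoots of 11 anthocyanin genes (left) and 5 early flavonoid enzymes (right), as the log2 fold change of -S over +S with its SE, in purple for eil3 eil1, orange for eil3, green for eil1 and grey for Col-0; filled points have an adjusted p under 0.05. GSTF12 lay at 4.58 for eil3 eil1 and at 2.12 for Col-0, and UGT84A2 at 0.73 to 1.01 for eil3, eil1 and Col-0.

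Among 25 partners and other regulators, 22 were tested in shoots, and 6 rose and 9 fell under the eil3 eil1 label, against 4 that rose and 0 that fell in Col-0. The counts that rose are near the share over all loci (32.5% under eil3 eil1 and 16.9% in Col-0), and 28.3% and 17.9% of all loci fell. The smallest p under eil3 eil1 belonged to LBD39 (0.92 ± 0.10), LBD37 (0.74 ± 0.08) and LBD38 (1.21 ± 0.14), which are known as repressors of PAP1 and PAP2 under ample nitrogen, and to GL2 (-1.76 ± 0.23), a trichome regulator downstream of the complex. The LBD genes thus rose in the same shoots as PAP1. TTG1, the WD-repeat partner, fell by 0.32 ± 0.06 under that label (adjusted p = 6.62e-05) and its response differed from that of Col-0 by -0.45 ± 0.08 (adjusted p = 2.17e-04). In Col-0 shoots the 4 that rose were LBD37 (0.42 ± 0.08), MYB32 (0.86 ± 0.17), MYB4 (0.58 ± 0.13) and MYB7 (1.01 ± 0.23), the last 3 being relatives known as repressors of phenylpropanoid genes.

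In roots few pathway genes were called for low sulfate. The share of all loci called was 3.89% under eil3 eil1, 1.06% under eil3, 1.92% under eil1 and 9.03% in Col-0. Of 2 proanthocyanidin genes tested, 1 fell in Col-0. At -S 1 of these 2 was higher than in Col-0 under each mutant label (6.07%, 3.28% and 1.33% of loci higher in the same order). The eil3 eil1 difference of response had 1 higher (2.3% of loci). Of 5 general phenylpropanoid genes, 1 rose in Col-0 and 1 under eil3 eil1. Of the 11 anthocyanin genes 7 were tested, and UGT84A2 alone rose, under the eil3 eil1 label (0.41 ± 0.10), eil3 (0.88 ± 0.11) and eil1 (0.78 ± 0.11), while none was called in Col-0 in edgeR. DFR and LDOX averaged at most 0.0819 and 0.102 CPM in any group of roots. CHS and FLS1, which MYB12 is known to activate, averaged 252.1 ± 40 and 63.4 ± 6.79 CPM in -S roots of Col-0 against 13.2 ± 6.21 and 2.62 ± 0.15 CPM in -S shoots, and no early enzyme was called for low sulfate in roots of any genotype. UGT78D2, a flavonoid glucosyltransferase, was higher at -S under the eil1 label (41 ± 2.31 against 28.9 ± 2.64 CPM, 0.50 ± 0.11, adjusted p = 0.0128). LBD39 fell by 0.68 ± 0.07 in -S roots of Col-0 (adjusted p = 5.42e-07).

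The loci whose log2(CPM + 1) over 24 libraries of an organ was most like that of a member were ranked by Pearson's r among 18997 loci in shoots and 19863 in roots with a mean of at least 1 CPM, as a description, since the libraries share 8 groups. For PAP1 in shoots they were AT4G23680 (0.980), SRG1 (0.978) and TGA7 (0.977), for TT8 AT1G24095 (0.946), AT2G45290 (0.943) and DREB19 (0.943), and for MYBL2 AT5G05890 (0.957), AT1G75460 (0.951) and AT4G21870 (0.949). MYB12 in shoots, near the floor, had no likeness above 0.794. In roots MYB12 was most like AT3G52740 (0.872), ELIP1 (0.849), an early light-induced protein, and UGT78D2 (0.847), and MYBL2 was most like AT5G14120 (0.947), AT5G66052 (0.940) and AT4G29905 (0.938).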

How the data were processed

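Expression was measured by RNA sequencing (TruSeq Stranded mRNA) in 48 libraries, and per the submitters' processing notes reads passed Trimmomatic 0.36 and FastQC and were quantified with kallisto 0.43.1 on TAIR10. The authors deposited estimated counts per target in 1 table, beside 48 columns of TPM that were not used. For most of the 10 genes the target is longer than the spliced transcript, so by length it includes introns. A second copy, not used, differs by over 0.5 in 2 of 1612896 counts, of 1 locus that it rounds. It differs in none of the 10 genes. Of the estimated counts 7.8% were not whole, and they were rounded for the tests. Shoot columns carry only a group, so their replicate numbers name columns.

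TPM was computed here from the rounded counts and the table's effective lengths, a column that holds the first library's values. From the counts, CPM with TMM factors and edgeR 4.0.16's quasi-likelihood tests were computed in R 4.3.3 in 3 fits: 24 shoot libraries (21697 loci kept by filterByExpr), 24 root libraries (21954) and the 12 Col-0 libraries (22301). The SE is the log2 fold change over the root of F. Alternatives were RLE size factors, total-count scaling, no count filter, limma 3.58.1 on log2(TPM + 1), DESeq2 1.42.0, the compared groups alone, a replicate block in roots and each library left out, and the adjusted p threshold was 0.05. On log2(TPM + 1) the added 1 shrinks the fold changes of genes at low TPM, so limma values of such genes do not compare in size. The code was tested on simulated data.

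Depth ran from 26615731 to 38269932 counts per library, and values cover counting and replicate error only. The labels name 3 biological replicates per group. Promoter windows and positions come from RefSeq TAIR10.1, which matched all 10 genes. Named pathway genes are the 4 with the smallest p in a list, with those the text singles out for their role chosen after their values were seen. The members and lists were chosen with earlier results of these data known.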

Additional observations from a re-analysis of the deposited data

Results flagged for a closer look

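The low sulfate response of MYBL2 under the eil3 eil1 label differed from that of Col-0 in shoots by -0.62 on the log2 scale and in roots by 1.28, each by a test of the difference itself in edgeR. MYBL2 fell more under eil3 eil1 than in Col-0 in shoots. In roots it fell in Col-0, while under eil3 eil1 the change was 0.15 ± 0.22 and did not pass in edgeR (adjusted p = 0.863). In Col-0 the response of roots minus that of shoots was -0.85 for MYBL2. The value of 1.28 did not pass in 7 of 12 fits with a library left out or in limma. No explanation was tested.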

How the results depend on the processing

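The number of the 10 genes called moved by over 1.5 times in these comparisons. In the Col-0 shoot response it was 5, and 3 with total-count scaling, 2 in limma, 2 with the compared groups alone and 2 to 4 with a library left out. In the eil1 shoot response it was 1, and 2 without the count filter, in DESeq2 and with the groups alone, and 1 to 4 with a library left out. At -S the eil3 label against Col-0 in shoots gave 1, and 2 in limma and 1 to 3 with a library left out, and at +S it gave 1, and 0 without the filter, in limma, with the groups alone and with any library left out (0 to 0). The eil3 eil1 label against Col-0 in +S shoots gave 1, and 2 in DESeq2 and with the groups alone, and the eil3 eil1 difference of response in shoots gave 1, and 2 in limma. In roots the eil1 response gave 1 (0 to 1 with a library left out), the eil3 response 1 (0 with the groups alone, 0 to 1), the eil1 label against Col-0 at -S 1 (0 with total-count scaling, in limma and with the groups alone, 0 to 1) and the eil3 eil1 difference of response 1 (0 in limma, 0 to 1). The organ difference of response gave 2 (1 to 2), with PAP1 at the floor in roots. Over all fits with a library left out, 1202 gene values kept their direction and their side of the threshold, 46 lost the call, 6 gained it and 66 changed direction. The cause was not tested.

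Of the gene values, 15 in the other settings and 66 with a library left out changed direction, and none of these had an adjusted p under 0.05 in either fit. In limma the value was 0.13 against -0.07 for MYB111 (eil3 eil1 shoot response), 0.05 against -0.06 for EGL3 (eil3 against Col-0 in -S shoots), -0.01 against 0.07 for MYBL2 (response of eil1 minus Col-0 in shoots), -0.02 against 0.06 for EGL3 (response of eil1 minus Col-0 in shoots), 0.12 against -0.67 for PAP1 (response of eil3 minus Col-0 in shoots), 0.02 against -0.11 for MYBL2 (response of eil3 minus Col-0 in shoots), 0.60 against -0.35 for PAP1 (response of eil3 eil1 minus Col-0 in shoots), 0.03 against -0.04 for EGL3 (Col-0 root response), -0.09 against 1.60 for MYB111 (response of root minus shoot in Col-0) and 0.07 against -0.80 for GL3 (response of root minus shoot in Col-0). With total-count scaling the value was 0.10 against -0.07 for MYB111 (eil3 eil1 shoot response), 0.07 against -0.06 for EGL3 (eil3 against Col-0 in -S shoots) and -0.09 against 0.02 for MYB12 (response of root minus shoot in Col-0). With RLE factors the value was -0.01 against 0.01 for GL3 (eil1 against Col-0 in -S shoots). In DESeq2 the value was -0.02 against 0.01 for GL3 (eil1 against Col-0 in -S shoots). With a library left out PAP2 ranged over -0.23 to 1.79 (eil1 against Col-0 in +S shoots), -1.18 to 0.15 (eil3 against Col-0 in +S shoots), -1.28 to 0.05 (eil3 eil1 against Col-0 in +S shoots), -1.02 to 0.43 (response of eil3 minus Col-0 in shoots) and -1.39 to 0.05 (response of eil3 eil1 minus Col-0 in shoots). MYB12 ranged over -0.42 to 0.77 (Col-0 shoot response), -1.19 to 0.01 (eil3 shoot response), -1.06 to 0.23 (eil3 against Col-0 in +S shoots), -0.17 to 0.03 (eil1 against Col-0 in +S roots) and -0.58 to 0.61 (response of root minus shoot in Col-0). MYB111 ranged over -0.24 to 0.07 (eil3 eil1 shoot response) and -0.25 to 0.18 (response of eil1 minus Col-0 in shoots). MYBL2 ranged over -0.04 to 0.16 (eil1 against Col-0 in +S shoots), -0.02 to 0.18 (response of eil1 minus Col-0 in shoots), -0.30 to 0.10 (eil3 root response) and -0.25 to 0.03 (eil3 eil1 against Col-0 in +S roots). TT8 ranged over -0.63 to 0.26 (eil1 against Col-0 in -S shoots), -0.06 to 0.56 (eil3 against Col-0 in +S shoots) and -0.91 to 0.01 (response of eil1 minus Col-0 in shoots). GL3 ranged over -0.26 to 1.44 (Col-0 shoot response), -0.35 to 0.50 (eil3 shoot response), -0.62 to 1.16 (eil1 against Col-0 in -S shoots), -0.10 to 1.60 (eil3 against Col-0 in -S shoots), -0.85 to 0.71 (eil3 eil1 against Col-0 in -S shoots) and -1.26 to 0.45 (response of eil3 minus Col-0 in shoots). GL3 also ranged over -0.08 to 0.20 (eil3 root response), -0.08 to 0.19 (eil3 eil1 root response), -0.10 to 0.02 (response of eil1 minus Col-0 in roots), -0.18 to 0.10 (response of eil3 minus Col-0 in roots), -0.18 to 0.09 (response of eil3 eil1 minus Col-0 in roots) and -1.33 to 0.36 (response of root minus shoot in Col-0). EGL3 ranged over -0.18 to 0.09 (eil3 against Col-0 in -S shoots), -0.03 to 0.27 (eil3 eil1 against Col-0 in +S shoots), -0.10 to 0.17 (response of eil1 minus Col-0 in shoots) and -0.06 to 0.25 (response of eil3 minus Col-0 in shoots).

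Counts over all loci moved as well. DESeq2 gave 386 against 207 for the eil3 difference of response in roots, 178 against 84 for eil1 in roots, 807 against 386 for eil3 in shoots and 99 against 5 for eil1 in shoots. For genotypes against Col-0 it gave 451 against 193 (eil3 eil1, root +S), 798 against 480 (eil3, root +S), 546 against 272 (eil1, root +S), 844 against 551 (eil1, root -S), 513 against 115 (eil1, shoot -S) and 668 against 273 (eil1, shoot +S), and 389 against 233 for the eil3 root response. Limma gave 296 against 193 (eil3 eil1, root +S), 124 against 273 (eil1, shoot +S), 842 against 1548 (eil3, shoot +S), 57 against 115 (eil1, shoot -S), 12589 against 7516 (eil3 shoot response), 704 against 386 and 17 against 5 (eil3 and eil1 differences of response in shoots). The compared groups alone gave 277 against 551 (eil1, root -S), 250 against 480 (eil3, root +S), 135 against 272 (eil1, root +S), 325 against 193 (eil3 eil1, root +S), 14 against 273 (eil1, shoot +S), 21 against 1548 (eil3, shoot +S), 516 against 1636 (eil3 eil1, shoot +S), 4947 against 7516 (eil3 shoot response), 102 against 233 and 262 against 422 (eil3 and eil1 root responses), 143 against 386 and 3 against 5 (eil3 and eil1 differences of response in shoots) and 41 against 84 (eil1 in roots). Total-count scaling gave 166 against 273 (eil1, shoot +S), 76 against 115 (eil1, shoot -S), 603 against 386 and 9 against 5 (eil3 and eil1 differences of response in shoots). The eil1 difference in shoots was 20 without the filter and 10 with RLE factors.

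Total-count scaling moved the median of all loci by 0.12 in the Col-0 shoot response (5711 higher and 2453 lower), 0.25 in eil3 (8837 and 1636), 0.19 in eil3 eil1 (9169 and 4535), 0.13 for eil3 against Col-0 in -S shoots (4042 and 937), 0.11 for eil3 eil1 (7617 and 4280) and 0.45 and 0.61 between organs at -S and +S (12872 and 5422, 14264 and 4850). The replicate block in roots kept all 52 gene values and 13 of 13 gene counts on their side, and moved 1 count over all loci, 349 with the block against 193 (eil3 eil1 against Col-0, root +S). Same-numbered root libraries were not taken as pairs, since 20 of 84 correlations of their deviations passed 0.1 (-0.182 to 0.204), and not all. Their mean was 0.031, against -0.0155 for other pairs, and 17 of 24 libraries were closest to their own number, which is a hint from the data and not from the labels.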
